A study of Mus musculus with 12 samples.

Results

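The genes examined were 10 of the 53801 gene rows of the series, chosen by name as the chains that bind IgE or carry its signal and the first enzymes and adaptors behind them. They are the alpha, beta and gamma chains of the high-affinity IgE receptor FceRI (Fcer1a, Ms4a2 and Fcer1g), the low-affinity IgE receptor Fcer2a, the kinases Syk, Lyn and Btk, the phospholipase Plcg2, the adaptor Lat2 and the lipid phosphatase Inpp5d. RNA had been sequenced from sorted cells of squamous cell carcinomas of the skin of FVB mice, with 3 libraries in each of 4 groups. The macrophage groups were CD45+ F4/80+ cells split on surface staining for FceRIa, which is the alpha chain, into libraries labelled FceRIa-positive and FceRIa-negative. The carcinoma groups were YFP-marked basal tumor cells with surface CD49f and CD29, divided by an mScarlet reporter of TGF-beta signalling into reporter-positive and reporter-negative libraries. The sources used here do not give how the carcinomas arose, the age of the mice, or whether libraries came from separate animals. The p-values below therefore measure only the spread between the libraries at hand, which may be technical.

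FceRI on mast cells and basophils is a tetramer of the IgE-binding alpha chain, the signal-amplifying beta chain and a pair of gamma chains, and the gamma chain also serves activating IgG receptors and lectin receptors of macrophages. When antigen gathers IgE on the receptor, the Src-family kinase Lyn phosphorylates tyrosines in the cytoplasmic tails of the beta and gamma chains, Syk binds there, and Syk with Btk activates phospholipase C gamma, which leads to calcium release. Lat2 (also called NTAL) is a membrane scaffold that Lyn and Syk phosphorylate, and Inpp5d (SHIP1) removes a phosphate from the lipid product of phosphoinositide 3-kinase and so restrains the response.

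The signalling tails of the beta and gamma chains are shown because these 2 chains signal for the same receptor while their genes lay far apart in level and moved in opposite directions in the macrophages. Each tail holds an immunoreceptor tyrosine-based activation motif, a pair of short units that start with a tyrosine codon and end with a leucine codon. The coding stretches below are from GENCODE M21 transcripts, 5′ to 3′, with the first and last codon of each unit in capitals. The Fcer1g stretch covers codons 65 to 79 of 86, and the Ms4a2 stretch covers codons 173 to 186 of 198 in transcript Ms4a2-201.
Fcer1g gamma chain: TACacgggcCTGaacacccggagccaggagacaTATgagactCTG
Ms4a2 beta chain: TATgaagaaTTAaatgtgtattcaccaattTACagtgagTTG
The units lie 7 codons apart in Fcer1g and 6 codons apart in Ms4a2, and the same 42 bases of Ms4a2 occur in 4 annotated coding transcripts.

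The stretches upstream of the genes of the 3 FceRI chains are shown because these chains work as a unit while their RNA levels lay far apart in the macrophages. They are the 250 bases before the start site from RefSeq windows on GRCm38.p6, 5′ to 3′. Capitals mark matches to the GATA motif, searched on both strands as AGATAA or AGATAG, or as TGATAA or TGATAG. Factors of the GATA family are transcriptional regulators of mast cells and basophils.
Fcer1a chr1:173227230-173227479 minus strand: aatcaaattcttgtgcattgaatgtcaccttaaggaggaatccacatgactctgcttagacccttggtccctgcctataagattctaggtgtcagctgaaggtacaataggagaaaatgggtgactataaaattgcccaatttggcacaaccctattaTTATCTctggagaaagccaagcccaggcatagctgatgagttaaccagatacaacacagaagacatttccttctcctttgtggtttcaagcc
Ms4a2 chr19:11623720-11623969 minus strand: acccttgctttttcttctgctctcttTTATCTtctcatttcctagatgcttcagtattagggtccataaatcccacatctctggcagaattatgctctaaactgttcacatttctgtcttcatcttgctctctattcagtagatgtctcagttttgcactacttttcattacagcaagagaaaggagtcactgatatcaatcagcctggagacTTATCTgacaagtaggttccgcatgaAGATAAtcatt
Fcer1g chr1:171234350-171234599 minus strand: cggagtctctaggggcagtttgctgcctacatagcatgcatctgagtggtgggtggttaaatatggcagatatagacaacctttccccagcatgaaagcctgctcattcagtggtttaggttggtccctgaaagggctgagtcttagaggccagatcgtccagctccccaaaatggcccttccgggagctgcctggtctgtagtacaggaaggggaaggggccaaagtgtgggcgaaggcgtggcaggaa
The Fcer1a stretch holds 1 match, 92 bases before the start. The Ms4a2 stretch holds 3, at 224, 37 and 11 bases before the start, and none was found in the Fcer1g stretch. Among all 32851 RefSeq windows of 300 bases, which run from 250 before to 50 after a start, 29.8% hold the motif. Windows were matched by symbol for 8 of the 10 genes (not Lyn and Lat2). The ETS core GGAAGT, also searched on both strands, occurs in 23.8% of all windows. It was found in windows of Inpp5d (2 matches), Syk and Fcer2a and in 0 of the windows of the 3 FceRI chains. The GATA motif was also found in windows of Fcer2a, Syk, Plcg2 and Inpp5d, so that 6 of the 8 genes had at least 1 match (not Fcer1g and Btk). Fcer2a had 3 windows and Syk 2, so this count by gene is not on the same unit as the 29.8% by window. These matches describe letters and not binding.

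Total counts ran from 27951632 to 35088897 per carcinoma library and from 33704786 to 40041144 per macrophage library. Levels are given as CPM (counts scaled to edgeR's normalized library size), and a gene with 3 counts in a library, the limit that a count of 0 allows, stands at 0.0698 to 0.107 CPM, which covers counting error only. Ptprc, the gene of CD45, was at 1035 to 1402 CPM in the macrophage and 0.681 to 2.56 CPM in the carcinoma libraries. Adgre1, the gene of F4/80, was at 487 to 970 CPM in the macrophages, and Itga6 (CD49f) at 887 to 1253 CPM in the carcinoma cells, so both cell types carried the RNA of their sort markers. All 9 macrophage markers were detected in every macrophage library, and keratinocyte markers summed to 1209 to 4138 CPM there against 63972 to 75205 CPM in the carcinoma cells. The macrophage sums included Itgb1 (CD29) at 526 to 684 CPM and Cdh1 at 140 to 1455 CPM. In the carcinoma cells Cdh1 was at 197 to 367 CPM. Krt14 ran from 97.2 to 1706 CPM in the macrophage libraries, lowest in replicate 3 of both groups. Fcer1a itself was near 0 everywhere, and its RNA therefore does not check the FceRIa labels. In bulk samples, fewer cells of a type and less RNA per cell cannot be told apart. Each comparison was tested with edgeR's quasi-likelihood test without pairing (unpaired) and again blocked on replicate number (paired). In the macrophages, libraries of the same number deviated together. In the carcinoma cells this held clearly for number 2 only, and numbers 1 and 3 could not be told apart in this way.

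The IgE-binding chains were at or near the limit of counting in all 12 libraries. Fcer1a (ENSMUSG00000005339, GRCm38 chr1:173221284-173227214, minus strand, 5 exon blocks) had 0, 4 and 3 counts in macrophage libraries 1 to 3 labelled FceRIa-negative and 2, 7 and 1 where the label was FceRIa-positive. These groups overlapped, and summed to 7 and 10 counts. In the carcinoma cells 5 libraries had 0 counts of Fcer1a, and reporter-positive replicate 2 had 6. Fcer2a (ENSMUSG00000005540, chr8:3681737-3694175), a C-type lectin also known as CD23 and best known from B cells, had 3, 3 and 0 counts in the macrophages labelled negative and 2, 0 and 0 in those labelled positive. It had at most 2 counts in any carcinoma library. Both genes fell under the count filter and were not tested; without the filter the log2 difference in the macrophages, positive minus negative, was 0.59 ± 1.05 (SE) for Fcer1a (edgeR adjusted p = 0.909) and -1.28 ± 1.41 for Fcer2a (adjusted p = 0.779). A difference in Fcer1a RNA between the FceRIa-sorted groups was not detectable at this depth.

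The beta chain was detected at a low level in every macrophage library and was lower in the libraries labelled FceRIa-positive. Ms4a2 (ENSMUSG00000024680, chr19:11615523-11623719, 8 exon blocks) had 23, 55 and 47 counts in negative replicates 1 to 3, or 0.578, 1.28 and 1.39 CPM. In the positive libraries it had 11, 16 and 13 counts, or 0.304, 0.437 and 0.383 CPM. Every positive library lay below every negative library. The negative libraries averaged 1.08 ± 0.441 CPM and the positive ones 0.375 ± 0.0668 CPM (SD, n = 3). The log2 difference was -1.52 ± 0.43 (SE) in the unpaired test with an edgeR adjusted p of 0.148, and -1.48 ± 0.32 in the paired test, where Ms4a2 fell with an edgeR adjusted p of 0.0134. The paired call held without any 1 pair, with adjusted p values of 0.0451, 0.0446 and 0.0342. RNA of the beta chain was thus lower in the libraries sorted as carrying the alpha chain.

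Markers of mast cells and basophils, the cells in which Ms4a2 is best known, were measured in the same libraries. The unpaired test called 0 of the markers and 0 of the other listed genes described for the macrophages, so each of these calls comes from the paired test, which called 10.8% of all genes higher and 10.2% lower. Of 8 tested mast cell markers 0 rose and 2 fell in the paired test. Kit, the stem cell factor receptor, was at 11.9, 10.3 and 16.9 CPM in the negative and 3.84, 2.48 and 4.83 CPM in the positive libraries (paired log2 difference -1.82, adjusted p = 0.000201). Hdc, the histamine-forming enzyme, fell by 1.28 on the log2 scale (paired adjusted p = 0.0117). The genes of granule proteases did not pass: Cpa3 was at 0.276 to 1.10 CPM in the negative and 0.331 to 0.819 CPM in the positive libraries (paired adjusted p = 0.657), and Cma1, Mcpt4, Tpsb2 and Tpsab1 had paired adjusted p values of 0.391 to 0.661. Of 4 tested basophil markers 2 fell, the protease gene Mcpt8 (log2 difference -2.15) and Cyp11a1 (-1.47), while Prss34 had 0 counts in all 6 libraries. The 10 mast cell markers summed to 18.3 to 155 CPM in the negative and 9.83 to 41.5 CPM in the positive libraries, and the 6 basophil markers to 10.6 to 15.7 and 9.63 to 13.0 CPM. Most of the mast cell sums was Hdc together with Kit. Hdc was at 60.1, 3.95 and 132 CPM in the negative and at 28.2, 3.41 and 32.3 CPM in the positive libraries, which overlapped. Most of the basophil sums was Il3ra, at 8.58 to 11.3 CPM and not called (edgeR paired adjusted p = 0.642). The part of mast cells and basophils in the Ms4a2 difference was not tested.

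**Figure D1:**
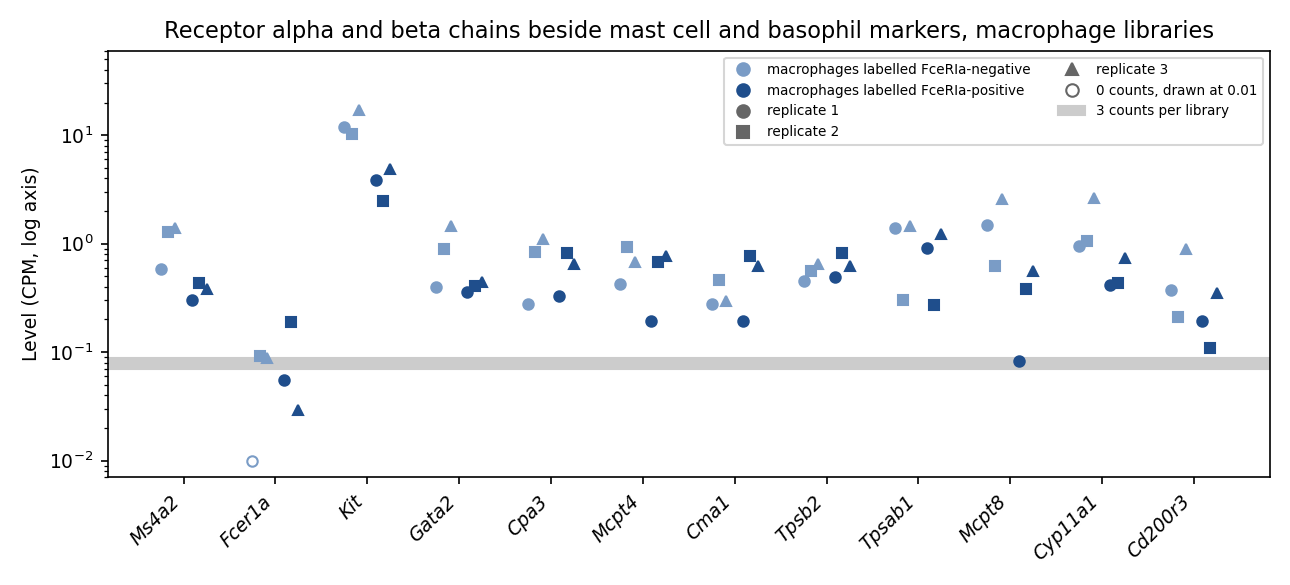
Level of Ms4a2 and Fcer1a and of 10 mast cell and basophil markers in the 6 macrophage libraries (CPM, log axis, 1 point per library, shape giving the replicate number, grey band the value of 3 counts). Ms4a2, Kit, Mcpt8 and Cyp11a1 lay lower in all 3 positive libraries, whereas the granule protease genes Cpa3, Mcpt4, Cma1, Tpsb2 and Tpsab1 overlapped between the groups.

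The gamma chain had the highest level per kilobase of exon of the 10 genes in macrophages and was higher in the libraries labelled FceRIa-positive. Fcer1g (ENSMUSG00000058715, chr1:171229572-171234365, 5 exon blocks) was at 811, 740 and 680 CPM in negative replicates 1 to 3 and at 944, 984 and 1098 CPM in the positive ones. All positive libraries lay above all negative libraries. The mean rose from 744 ± 65.5 to 1009 ± 79.5 CPM (SD, n = 3), a log2 difference of 0.44 ± 0.13 (SE) with an edgeR adjusted p of 0.164 unpaired and 0.44 ± 0.11 with an adjusted p of 0.0274 paired. The paired call was lost without pair 1 (adjusted p = 0.0549) or pair 2 (adjusted p = 0.0999). Unpaired DESeq2 called the gene with an adjusted p of 0.00864. Per kilobase of exon, Fcer1g ranked 28th among 14969 tested genes in the macrophages.

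Genes of other receptors that use the gamma chain were higher where they passed, as Fcer1g was. Of 8 tested, 5 rose and 0 fell in the paired test, beside 10.8% of all genes higher (5, 3 and 4 rose without pair 1, 2 or 3). In the unpaired test 0 were called, with adjusted p values of 0.371 for Clec4d, 0.204 for Clec4n and 0.295 for Fcgr1. The list's median paired log2 difference was 0.45 against -0.0039 over all genes. Fcgr3, a low-affinity activating IgG receptor, was at 1316, 1088 and 943 CPM in the negative and 1774, 1674 and 1626 CPM in the positive libraries (paired log2 difference 0.61 ± 0.11, adjusted p = 0.0060). Fcgr4, an IgG receptor that can also bind IgE in mice, rose by 0.80 ± 0.11 (paired adjusted p = 0.00207). The lectin receptor genes Clec4d and Clec4n rose by 0.75 and 0.44, and Fcgr1, the high-affinity IgG receptor, by 0.46 (all paired, log2 scale). Gp6, the collagen receptor of platelets, had 0 counts in all 6 libraries.

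Genes of other proteins that can bind IgE were higher in the libraries labelled FceRIa-positive where they passed the paired test. Of 4 such genes, 3 rose and 0 fell in the paired test, beside 10.8% of all genes higher. These were Fcgr4, Fcgr3 and the inhibitory IgG receptor Fcgr2b, with a median of 0.69 over the list. Fcgr4 and Fcgr3 were already counted among the receptors that use the gamma chain, so only the rise of Fcgr2b is added here. Fcgr2b was at 2560, 1930 and 1788 CPM in the negative and 3958, 3156 and 3550 CPM in the positive libraries (paired log2 difference 0.78 ± 0.12, adjusted p = 0.00334). Lgals3, the gene of galectin-3, overlapped between the groups (paired log2 difference 0.14 ± 0.10, adjusted p = 0.391). Fcgr2b and Fcgr3 are similar in sequence, and reads shared between them cannot be told apart here. In the unpaired test 0 of these genes were called (adjusted p = 0.0963 for Fcgr4, 0.105 for Fcgr2b and 0.122 for Fcgr3).

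These rises stood beside shifts in cell type markers between the macrophage groups. The counts here are from the paired test, which called 10.8% of all genes higher and 10.2% lower. Of 9 macrophage markers 7 rose in the paired test, and the sum of the 9 went from 11586 to 13694 CPM in the negative to 19723 to 23048 CPM in the positive libraries. Of 7 tested dendritic cell genes 4 fell, namely Flt3, Zbtb46, Ccr7 and Itgae, with paired log2 differences of -2.85 to -1.98. Most of that list's sum of 987 to 1121 CPM in the negative libraries was Itgax, a gene that macrophages share, which was not called (paired adjusted p = 0.219). Both Langerhans cell markers fell, with sums of 269 to 739 CPM in the negative and 36.1 to 60.3 CPM in the positive libraries. Of 8 keratinocyte markers 6 fell. Cdh1, 1 of these 6, was at 547 to 1455 CPM in the negative macrophage libraries, above its level in every carcinoma library. Of 3 tested B cell markers 1 rose, Cd22 (paired log2 difference 1.66), and of 3 tested neutrophil markers 2 fell. The part of these shifts in the differences of the receptor and signalling genes was not tested.

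Among the kinases, Lyn was higher in the macrophages labelled FceRIa-positive, and Syk and Btk overlapped between the groups. Lyn (ENSMUSG00000042228, chr4:3678115-3813122, 14 exon blocks) was at 522, 491 and 478 CPM in negative replicates 1 to 3 and at 586, 609 and 667 CPM in the positive ones, all above the negative libraries. The log2 difference was 0.32 ± 0.11 (SE) with an edgeR adjusted p of 0.229 unpaired and 0.32 ± 0.09 with an adjusted p of 0.048 paired. The paired call was lost without pair 1, 2 or 3 (adjusted p = 0.0824, 0.193 and 0.0957), and unpaired DESeq2 called the gene (adjusted p = 0.0287). Lyn shares 248 exonic bases with Gm26857 on the opposite strand, which had at most 49 counts in a macrophage library.

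Syk (ENSMUSG00000021457, chr13:52583173-52648792) was at 306, 236 and 324 CPM in the negative and 338, 301 and 318 CPM in the positive macrophages. The groups overlapped, with a log2 difference of 0.14 ± 0.15 (edgeR adjusted p = 0.766 unpaired and 0.291 paired). Btk (ENSMUSG00000031264, chrX:134542336-134583570) was at 99.9, 95.2 and 108 CPM in the negative and 98.3, 101 and 111 CPM in the positive libraries. Its log2 difference of 0.03 ± 0.10 (adjusted p = 0.933) was the smallest of the 8 tested genes, and it changed sign with upper-quartile scaling.

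Behind the kinases, the phospholipase moved against Lyn and Fcer1g. Plcg2 (ENSMUSG00000034330, chr8:117498291-117635142, 33 exon blocks) was at 289, 258 and 344 CPM in the negative and 223, 204 and 248 CPM in the positive macrophages, so every positive library lay below every negative one. The log2 difference was -0.40 ± 0.15 (SE) with an edgeR adjusted p of 0.244 in the unpaired test, and -0.39 ± 0.08 in the paired test, where Plcg2 fell with an adjusted p of 0.00993. Without pair 1 the paired adjusted p was 0.0544, and it stayed under 0.05 without pair 2 (0.0438) or pair 3 (0.00561).

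Lat2 and Inpp5d did not pass in either test of the macrophages. Lat2 (ENSMUSG00000040751, chr5:134600022-134615025) was at 115, 126 and 107 CPM in the negative and 92.7, 107 and 105 CPM in the positive libraries, lower in the positive library of all 3 pairs. Its log2 difference was -0.19 ± 0.11 (edgeR adjusted p = 0.502 unpaired and 0.146 paired), and without pair 3 the paired value was -0.27 with an adjusted p of 0.0308. Lat2 shares 952 exonic bases with Rfc2 on the opposite strand, and since the strand setting of the counting is not given in the sources used here, reads of the pair cannot be told apart. Inpp5d (ENSMUSG00000026288, chr1:87620312-87720507, 29 exon blocks) was at 521, 438 and 517 CPM in the negative and 575, 489 and 541 CPM in the positive libraries. In each pair the positive library was the higher one, with a log2 difference of 0.12 ± 0.13 (adjusted p = 0.783 unpaired and 0.347 paired).

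Counted together, 8 of the 10 genes passed the filter in the macrophages, each at or above it in all 6 libraries. In the unpaired test 0 were called, as were 0.0% of the 14988 genes tested; 4 of the 8 had an unadjusted p under 0.05, against 2345 genes (15.6%) in all. Unpaired DESeq2 called 2 higher, where it called 4.39% of all genes higher and 4.04% lower. The paired test called 2 higher (Fcer1g and Lyn) and 2 lower (Ms4a2 and Plcg2), beside 10.8% of all genes higher and 10.2% lower. The same 4 genes had groups that did not overlap, a pattern seen in 21.4% of all genes (11.6% with the positive libraries above and 9.78% with them below). The median log2 difference of the 8 was 0.08, and that of all genes -0.0044.

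**Figure D2:**
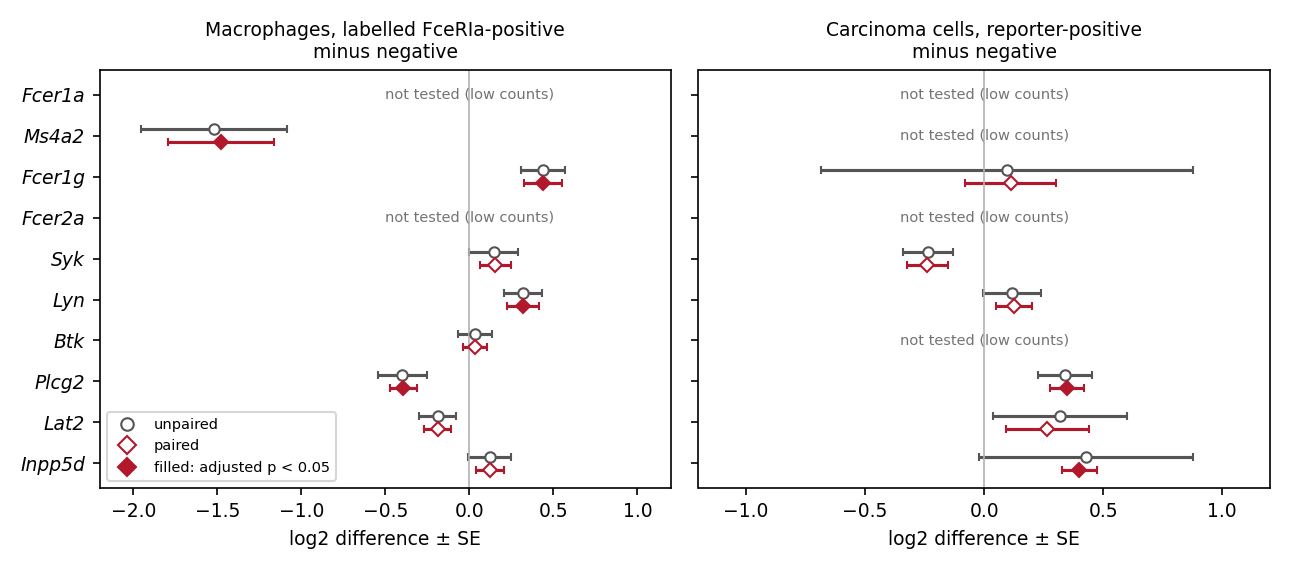
Log2 difference ± SE, positive minus negative, of each gene in the macrophages (left) and the carcinoma cells (right), from the unpaired (grey open circles) and paired (red diamonds) edgeR tests, with filled symbols for an adjusted p under 0.05. In the macrophages Fcer1g and Lyn lie above 0 and Ms4a2 and Plcg2 below it, and only paired values are filled.

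Set beside each other per kilobase of exon, the 10 genes spanned from the top of the macrophage transcriptome to the counting limit. In the macrophages labelled FceRIa-negative the mean was 851 CPM per kilobase for Fcer1g, 122 for Lyn, 69.1 for Plcg2, 64.7 for Inpp5d, 44.3 for Lat2, 32.1 for Btk and 30.8 for Syk. Ms4a2 followed at 0.385, Fcer1a at 0.0607 and Fcer2a at 0.0156 CPM per kilobase. Plcg2 and Inpp5d overlapped, as did Btk and Syk and also Fcer1a and Fcer2a, and the other neighbours did not. In the libraries labelled FceRIa-positive the order was the same at the top, with Fcer1g at 1154 and Lyn at 152 CPM per kilobase. There Inpp5d at 70.4 lay above Plcg2 at 52.4 CPM per kilobase without overlap, and Lat2, Syk and Btk at 38.8, 34.1 and 32.8 overlapped with their neighbours. Ms4a2 at 0.133 and Fcer1a at 0.0921 CPM per kilobase also overlapped there. Per kilobase, the gamma chain thus exceeded the beta chain in every macrophage library, while the alpha chain had at most 7 counts.

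**Figure D3:**
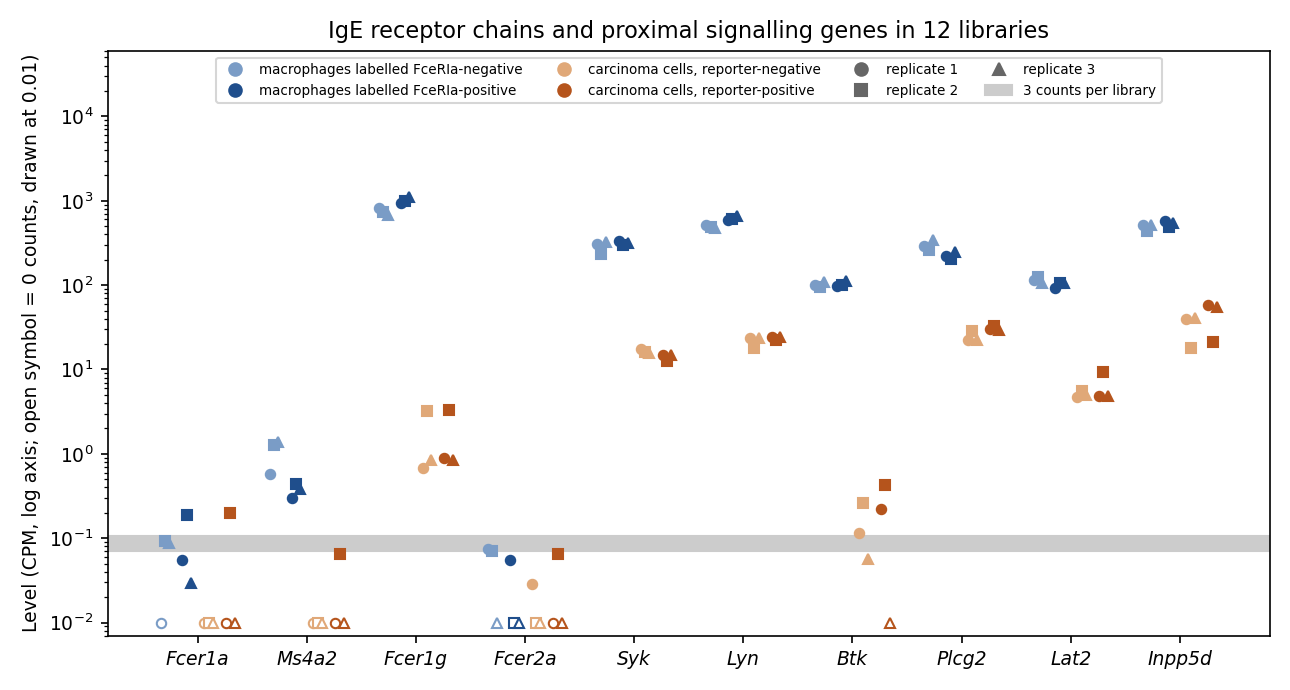
Level of each of the 10 genes in all 12 libraries (CPM, log axis, 1 point per library, shape giving the replicate number, open symbols at 0.01 for 0 counts, grey band the value of 3 counts). Fcer1g, Syk, Lyn, Btk, Plcg2, Lat2 and Inpp5d stand between 92.7 and 1098 CPM in the macrophages, whereas Fcer1a and Fcer2a reach at most 7 and 3 counts.

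Between the cell types, the signalling genes divided into those nearly absent from the carcinoma cells and those present there at a low level. The 2 tables were scaled together for this comparison, and cell type and table cannot be told apart. Btk, at 93.1 to 108 CPM in the macrophages, had 0 to 13 counts in the carcinoma libraries, a log2 difference of 9.08 ± 0.35 (edgeR adjusted p = 1.14e-09). Fcer1g differed by 8.98 ± 0.54, a 505-fold difference. Ms4a2 had 0 counts in 5 carcinoma libraries and 2 in reporter-positive replicate 2, against 11 to 55 in the macrophages. Ms4a2 and Btk entered this test through the macrophage libraries, so they had to differ.

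Syk, Lyn, Lat2, Plcg2 and Inpp5d were measured at 382 to 623, 552 to 830, 136 to 284, 779 to 995 and 551 to 1816 counts in the carcinoma libraries. The overlapping gene Rfc2 had up to 3740 counts there and up to 2883 in the macrophages, so the Lat2 values of the carcinoma cells cannot be told apart from Rfc2 reads. Lyn was 23.3-fold higher in the macrophages (log2 difference 4.54 ± 0.10, edgeR adjusted p = 3.29e-11), Syk 18.8-fold, Lat2 18.1-fold, Inpp5d 12.8-fold and Plcg2 8.94-fold. For Fcer1g and these 5 genes, which passed the filter in both cell types, all macrophage libraries lay above all carcinoma libraries. The test called 44.8% of all genes higher in macrophages and 40.6% lower, 85.4% in all, and 37.0% of all genes had every macrophage library above every carcinoma library.

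Relative to their own macrophage mean, these 5 genes stood above the leukocyte markers in the carcinoma libraries. Plcg2 was at 8.91 to 13.4% of its macrophage level, Inpp5d at 3.71 to 11.8%, Syk at 4.43 to 6.12%, Lat2 at 4.49 to 9.18% and Lyn at 3.42 to 4.57%. Fcer1g was at 0.0817 to 0.402% and Btk at 0 to 0.448%. The 8 leukocyte markers had a median of 0.123 to 0.469% per library, and the highest of them in any library was Lcp1, an actin bundling protein, at 2.46%. Among 9 macrophage markers the highest was Cd14 at 3.58% in reporter-positive replicate 2, a library in which Lyn was at 4.25% and Syk at 4.43%. Fcer1g and the leukocyte markers were highest in replicate 2 of both groups, with 0.387 and 0.402% for Fcer1g and leukocyte medians of 0.349 and 0.469%. Plcg2 (11.5 and 13.4%) and Lat2 (5.43 and 9.18%) were also highest in replicate 2 of their group, whereas Inpp5d was lowest there, at 3.71 and 4.42%.

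**Figure D4:**
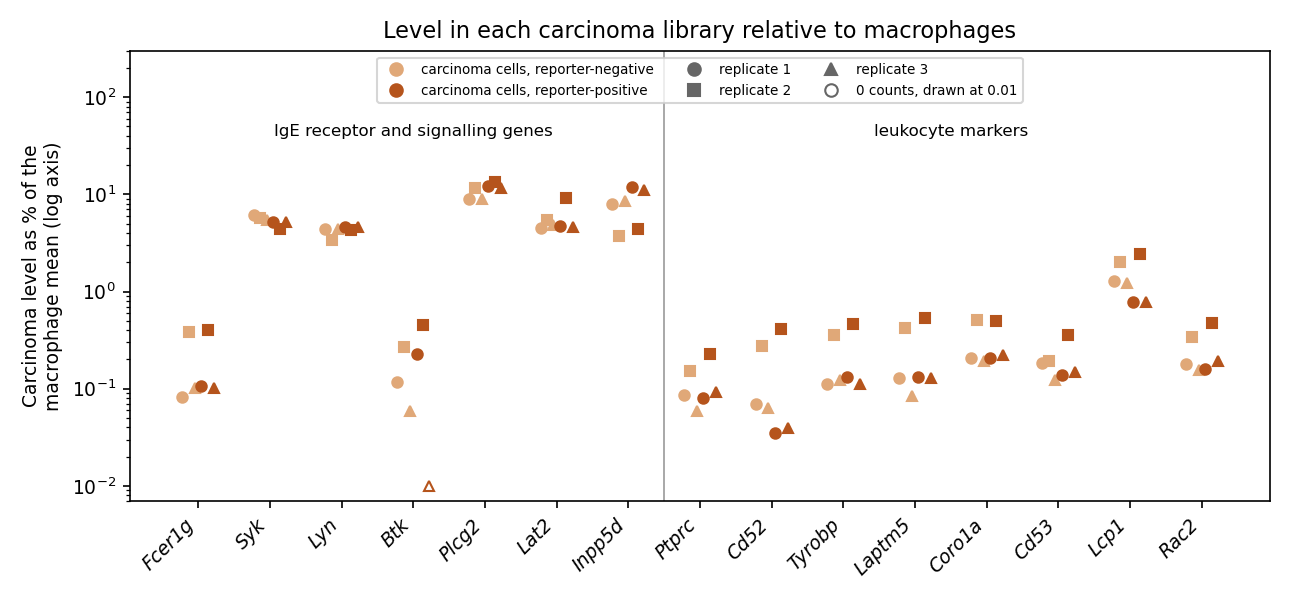
Level in each carcinoma library as a percentage of the mean over the 6 macrophage libraries (log axis, 1 point per library), for 7 of the receptor and signalling genes (left) and 8 leukocyte markers (right). Syk, Lyn, Plcg2, Lat2 and Inpp5d lie at 3.42 to 13.4%, above Fcer1g, Btk and every leukocyte marker.

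Within the carcinoma cells, Plcg2 and Inpp5d were higher in the reporter-positive libraries of each pair. Plcg2 was at 22.5, 28.5 and 22.1 CPM in reporter-negative replicates 1 to 3 and at 30.5, 32.6 and 29.3 CPM in the positive ones, all above the negative libraries. The log2 difference was 0.34 ± 0.11 (SE) with an edgeR adjusted p of 0.181 unpaired and 0.35 ± 0.07 with an adjusted p of 0.0246 paired. Inpp5d was at 39.4, 18.0 and 41.3 CPM in the negative and 57.4, 21.2 and 54.4 CPM in the positive libraries. Replicate 2 was low in both groups, so the groups overlapped, and the difference was 0.43 ± 0.45 (adjusted p = 0.675) unpaired and 0.40 ± 0.07 (adjusted p = 0.0179) paired. Both paired calls were lost without pair 1 (adjusted p = 0.117 for Plcg2 and 0.0811 for Inpp5d) or pair 3 (0.117 and 0.0631). Plcg2 thus differed upward here and downward in the macrophages, between groups sorted on different marks, and the difference between these comparisons was not tested.

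Replicates 1 and 3 of the carcinoma cells stood close to each other, closer than either stood to replicate 2 (chi-square over degrees of freedom 3.13 among negative and 1.65 among positive libraries, against 46.8 to 98.9 with replicate 2). How replicates 1 and 3 pair between the groups cannot be told from the data, and the paired test follows the numbers. Without replicate 2 of both groups, an alternative chosen after seeing the data, the unpaired log2 difference was 0.42 for Plcg2 (adjusted p = 2.65e-06) and 0.47 for Inpp5d (adjusted p = 1.53e-08), and 39.7% of all genes were called. These p-values measure only the small spread between replicates 1 and 3, which may be technical. The leukocyte markers summed to 33.2 to 62.7 CPM in the negative and 24.6 to 76.2 CPM in the positive libraries, and 0 of 7 tested were called in the paired test. The macrophage markers summed to 29.8 to 64.6 and 36.4 to 95.1 CPM. Of 9 tested, 3 rose and 0 fell in the paired test, beside 10.7% of all genes higher. These were Csf1r, Lyz2 and Mrc1, with paired log2 differences of 0.54, 0.43 and 0.63. The part of macrophages in the Plcg2 and Inpp5d differences was not tested. Replicate 2 had the highest leukocyte sum, the highest Plcg2 and the lowest Inpp5d of each group.

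The other signalling genes were not called in the carcinoma cells. Syk was at 17.7, 16.3 and 15.7 CPM in the negative and 14.8, 12.5 and 14.9 CPM in the positive libraries, all below the negative ones, with a log2 difference of -0.24 ± 0.10 (edgeR adjusted p = 0.286 unpaired and 0.106 paired). Lyn was at 23.6, 18.1 and 23.5 against 24.2, 22.1 and 24.3 CPM, a difference of 0.12 ± 0.12 (adjusted p = 0.67). Lat2 was at 4.67 to 5.60 CPM in the negative libraries and at 4.87, 9.31 and 4.83 CPM in the positive ones, where replicate 2 was high (log2 difference 0.32 ± 0.28, adjusted p = 0.603). Fcer1g had 24, 98 and 30 counts in the reporter-negative and 28, 100 and 24 counts in the reporter-positive libraries, high in replicate 2 of both groups (log2 difference 0.09 ± 0.78, adjusted p = 0.966). Btk had 4, 8 and 2 against 7, 13 and 0 counts and fell under the filter.

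Of the 10 genes, 6 were tested in the carcinoma cells, each above the filter in all 6 libraries. The unpaired test called 0 of them, and 0.809% of the 13604 genes tested (0.573% higher and 0.235% lower). In that test 1 of the 6 had an unadjusted p under 0.05, against 2642 genes (19.4%) in all. Unpaired DESeq2 also called 0 of the 6, where it called 5.2% of all genes higher and 3.34% lower. The paired test called 2 higher and 0 lower, beside 10.7% of all genes higher and 7.34% lower. Groups did not overlap for 2 of the 6 (Plcg2 and Syk), against 28.2% of all genes (14.6% above and 13.6% below). The few Fcer1a and Ms4a2 counts of the carcinoma cells, 6 and 2, were in reporter-positive replicate 2. In that library mast cell markers summed to 8.69 CPM, with Mcpt4 at 2.03 and Cpa3 at 1.02 CPM, against 1.34 to 2.07 CPM in the other 5 libraries, and Gata1 of the basophil list had 0 counts in all 6. The part of such cells in those counts was not tested.

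Beyond these 10 genes, 86 genes of the wider IgE receptor pathway were followed in lists by role. In the macrophages 82 were tested, 0 were called unpaired, and in the paired test 15 rose and 17 fell. The share called, 39.0%, stands beside 21.0% of all genes, and the median paired log2 difference was -0.0093 over the lists and -0.0039 over all genes. The lists were chosen with earlier results of these data known, so this share is no independent result. Without pair 1, 2 or 3 the paired test called 4, 11 and 17 higher and 11, 15 and 16 lower.

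Src and Tec family kinases other than Lyn and Btk, listed together with the Syk relative Zap70, went down where they moved. Of 10 tested, Zap70 among them (not called), 0 rose and 4 fell in the paired test (1, 5 and 5 fell without pair 1, 2 or 3). Fgr, a myeloid Src kinase, was at 261, 249 and 361 CPM in the negative and 188, 210 and 273 CPM in the positive libraries (paired log2 difference -0.38 ± 0.08, edgeR adjusted p = 0.0154). Fyn, which acts beside Lyn at FceRI, fell (paired log2 difference -0.54, adjusted p = 0.0184), from 37.0, 38.5 and 58.6 to 29.3, 30.7 and 30.4 CPM. Lck, a kinase of T cells, also fell, with a paired log2 difference of -2.16 from at most 3.19 CPM.

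T cell genes also made up the calls among the other proteins with an activation motif. Of 5 tested, Cd247, Cd3g and Cd3d fell in the paired test, beside 10.2% of all genes lower (2, 4 and 3 genes fell without pair 1, 2 or 3). Their paired log2 differences were -4.25, -4.16 and -3.20, and their unpaired adjusted p values were 0.0846, 0.137 and 0.270. These 3 encode chains of the T cell receptor complex. Cd3g was at 15.8, 0.674 and 14.8 CPM in the negative and 0.276, 0.246 and 1.06 CPM in the positive libraries, so negative replicate 2 lay among the positive ones. Tyrobp, the DAP12 adaptor of myeloid cells, was at 951 to 981 CPM in the negative and 908 to 1146 CPM in the positive libraries (paired adjusted p = 0.639). The 6 T and NK cell markers summed to 5.37 to 27.4 CPM in the negative and 2.40 to 5.13 CPM in the positive libraries.

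Adaptors and exchange factors moved in both directions. Of 13 tested, 3 rose and 2 fell in the paired test (1, 3 and 4 rose without pair 1, 2 or 3). Vav2, a guanine nucleotide exchange factor, was at 55.2, 55.7 and 41.1 CPM in the negative and 87.5, 91.6 and 80.2 CPM in the positive libraries (paired log2 difference 0.78 ± 0.08, edgeR adjusted p = 0.000664, unpaired 0.0596). Vav3 and the B cell linker Blnk rose by 0.47 and 0.53. Grap2, also called GADS, which links LAT to SLP-76, fell by 1.48 on the log2 scale (paired adjusted p = 0.000611), from 58.8, 82.3 and 101 to 17.5, 42.0 and 30.6 CPM. Shc1 fell by 0.27.

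In the phosphoinositide 3-kinase list 3 of 11 genes rose and 0 fell in the paired test (0, 2 and 3 rose without pair 1, 2 or 3). Pik3ap1, the adaptor BCAP, went from 82.0, 89.4 and 92.1 to 116, 113 and 124 CPM (paired log2 difference 0.43 ± 0.07, edgeR adjusted p = 0.00511). The regulatory subunit gene Pik3r1 rose by 0.38 and the catalytic subunit gene Pik3ca by 0.23. Of 17 genes of calcium, protein kinase C and RAS-MAPK signalling, 2 rose and 3 fell in the paired test, beside 10.8% and 10.2% of all genes (1, 1 and 2 rose and 3, 1 and 2 fell without pair 1, 2 or 3). Prkcb fell by 0.58 on the log2 scale, from 124, 152 and 194 to 89.5, 116 and 106 CPM, and Prkca rose by 0.67, both being classical protein kinase C genes. Itpr3 and Rasgrp4 fell, with differences of -0.45 and -0.39, and Nfatc2 rose by 0.27.

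Inhibitors of the pathway were divided as well. Of 18 tested, 6 rose and 3 fell in the paired test (2, 5 and 6 rose without pair 1, 2 or 3). Inppl1, which encodes SHIP2, the relative of Inpp5d, went from 86.3, 71.8 and 75.3 to 115, 97.6 and 117 CPM (paired log2 difference 0.50 ± 0.08, edgeR adjusted p = 0.00328). Siglece, an inhibitory sialic acid receptor, fell by 1.09 on the log2 scale (adjusted p = 0.000247), from 76.0, 75.3 and 101 to 35.2, 40.3 and 42.4 CPM. The phosphatase gene Ptpn22 fell by 0.76, and Ptpn6, which encodes SHP-1, fell by 0.34. The other genes that rose were Fcgr2b, Cblb, Spred1, Cd300a and Pirb.

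Among genes of granule release and lipid mediators, the leukotriene genes Ltc4s, Alox5ap and Alox5 were lower in the macrophages labelled FceRIa-positive in the paired test. Of 13 tested, 1 rose and 5 fell in the paired test (4, 5 and 4 fell without pair 1, 2 or 3), with a median of -0.36. Ltc4s, leukotriene C4 synthase, fell (paired log2 difference -1.10 ± 0.08, edgeR paired adjusted p = 0.000203, unpaired 0.0685), from 38.9, 29.4 and 49.3 to 18.5, 14.6 and 21.1 CPM. Alox5ap and Alox5, which act at the start of leukotriene synthesis, fell with paired differences of -0.59 and -1.63. For both genes the groups overlapped. Alox5ap was at 200 to 328 CPM in the negative and 131 to 205 CPM in the positive libraries (edgeR unpaired adjusted p = 0.298). Alox5 was at 64.4 to 249 and 12.1 to 66.4 CPM (edgeR unpaired adjusted p = 0.386). Rab27a, a GTPase of granule docking, fell by 0.61, and the priming factor gene Unc13d fell by 0.36. Snap23, a SNARE of membrane fusion, rose by 0.36.

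**Figure D5:**
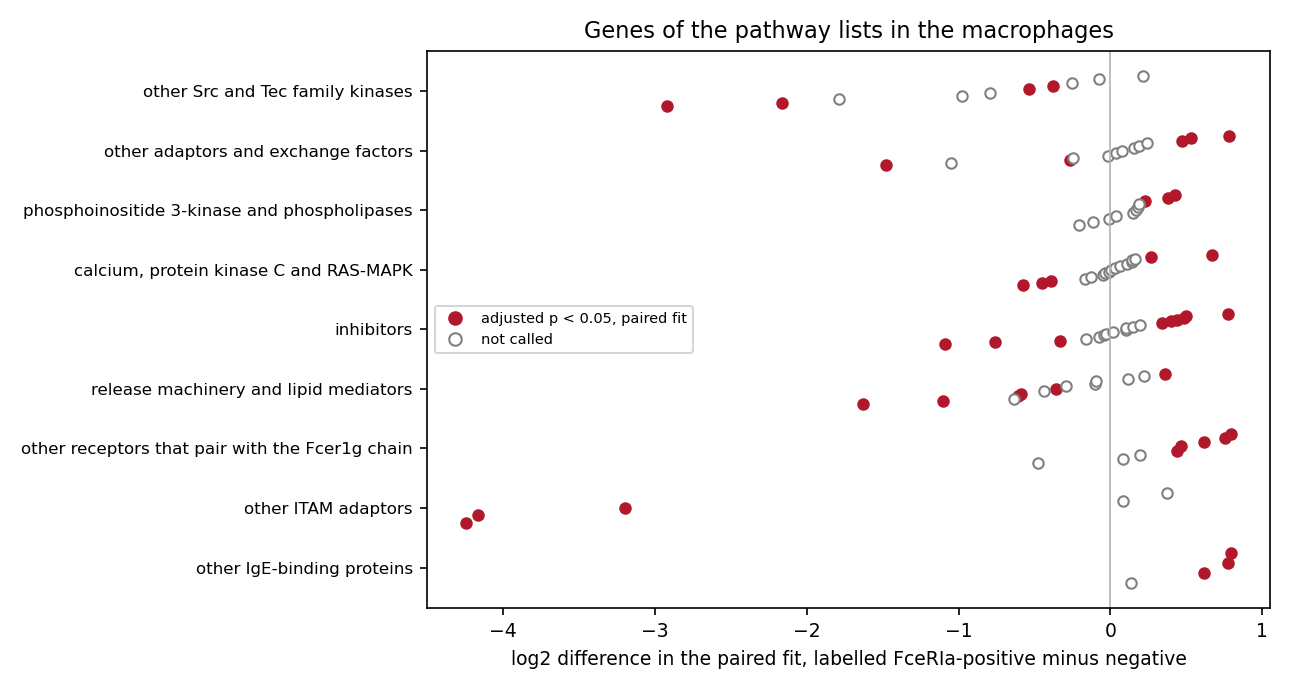
Paired log2 difference of each tested gene of the pathway lists in the macrophages, labelled FceRIa-positive minus negative, with red points for an adjusted p under 0.05 and open points for the rest. Receptors that pair with the gamma chain and other IgE-binding proteins have their red points to the right of 0, other Src and Tec family kinases (with Zap70) and ITAM adaptors (those with an activation motif) to the left, and the remaining lists on both sides or, for phosphoinositide 3-kinase, to the right.

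In the carcinoma cells 69 of the 86 pathway genes were tested, and 1 rose in the unpaired test. It was Ppp3ca, a catalytic subunit of calcineurin, at 93.4, 90.4 and 93.7 CPM in the negative and 119, 124 and 119 CPM in the positive libraries (log2 difference 0.38, edgeR adjusted p = 0.0475). In the paired test 10 rose and 3 fell, a share of 18.8% beside 18.0% of all genes. Plcg1, the phospholipase C gamma of most tissues, rose by 0.31 ± 0.06 (paired adjusted p = 0.0215), from 55.4, 63.6 and 57.6 to 74.9, 72.5 and 71.8 CPM, beside the rise of Plcg2. Dok1 and Dok2, adaptors that restrain receptor signalling, rose by 0.65 and 0.88. Hpgds, a prostaglandin D synthase, rose by 1.71 from 8.08, 10.7 and 9.22 to 23.0, 56.3 and 20.7 CPM, highest in replicate 2. Blnk rose by 1.76, Ptgs1 by 0.43, Pdpk1 by 0.21, Prkcd by 0.20 and Tec by 1.15, while Akt1, Vav3 and Lck fell, with log2 differences of -0.27, -0.27 and -1.27. Without pair 1, 2 or 3 the paired test called 8, 27 and 7 of the 86 genes higher and 0, 5 and 0 lower.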

How the data were processed

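Cells were sorted by flow cytometry and RNA was made into Illumina TruSeq v2 libraries, per the labels' protocols. The authors deposited raw counts of reads per gene in 2 tables. FastQC, STAR and the genome mm10 (GRCm38) are named in the submitters' processing notes. How reads were assigned to genes, with which tool, strand setting and annotation, is not given in the sources used here. The 4 columns of counts of no sample in the series were left out, and each library's group comes from its title.

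The tests used edgeR 4.0.16 under R 4.3.3 (TMM scaling, filterByExpr, quasi-likelihood test, Benjamini-Hochberg adjustment over all tested genes, threshold 0.05), on 14988 genes in the macrophages, 13604 in the carcinoma cells and 16279 in both tables joined. Alternatives were DESeq2 1.42.0, other scaling factors and filters, the replicate block, and leaving out each library. Paired fits without a pair, with DESeq2, and fits without carcinoma replicate 2 were added after seeing the data. Same-numbered libraries shared their deviations from group means (correlations of 0.688, 0.787 and 0.734 for numbers 1, 2 and 3 in the macrophages, and of 0.449, 0.703 and 0.488 in the carcinoma cells), so the number was taken to pair the samples. Carcinoma negative replicate 1 correlated more with positive replicate 3 (0.488) than with positive replicate 1. Negative replicate 3 correlated about as well with positive replicate 1 (0.483) as with positive replicate 3. The data thus do not show how carcinoma numbers 1 and 3 pair, and the block follows the numbers there. Elsewhere the pairing comes from the data, since no label says what the numbers stand for. Both macrophage libraries numbered 2 carry the word New in their column names, and its meaning is not given in the sources used here.

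The 10 genes and all lists were chosen with earlier results of these data known. The rule for names took the 10 genes, up to 4 genes per pathway list past the threshold with the smallest p (read from the paired fit, since the unpaired fit called none in the macrophages and 1 in the carcinoma cells, a choice made after seeing the data) and the most abundant, and per marker list the 3 most abundant genes and those at 0. Fcgr1, Nfatc2, Shc1, Alox5, Unc13d, Cblb, Spred1, Cd300a, Pirb, Ptpn6, Cd22, Zap70, Flt3, Zbtb46, Ccr7, Itgae and the other mast cell and basophil markers fall outside it, chosen once their values had been seen. Its part on genes most like Fcer1a was not applied, because Fcer1a had at most 7 counts. Some genes that the rule names are not reported here. CPM per kilobase uses exonic bases of GENCODE M21, to which 53620 of 53801 gene IDs matched. Sequences were searched with Biopython 1.88. The test scripts were tested on simulated data.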

Additional observations from a re-analysis of the deposited data

How the results depend on the processing

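In the macrophages, 0 of the 10 genes were higher and 0 lower under other scaling factors or filters and with any single library left out (lowest 0, highest 0). DESeq2 called 2 higher. The replicate block called 2 higher and 2 lower, as did the replicate block with DESeq2. Chosen after seeing the data, the block without pair 1, 2 or 3 called 0, 0 and 1 higher and 1, 2 and 3 lower. In the carcinoma cells the count was 0 with any library left out, and 2 higher with the replicate block, with the block and DESeq2, with the block without pair 2, and unpaired without pair 2. The pairing changed no other call of these genes. Over all genes, the macrophage count of 0 higher and 0 lower became 1618 and 1524 with the block, 658 and 605 with DESeq2 and 292 and 331 with no count filter, and the block without pair 1, 2 or 3 gave 626 and 691, 1298 and 1374, and 1743 and 1606. In the carcinoma cells 78 higher and 32 lower became 1450 and 999 with the block, 708 and 455 with DESeq2, 173 and 36 with no count filter, 391 and 230 without positive replicate 2, at most 8 and 2 without any other library, and 2782 and 2619 unpaired without pair 2. In the cell type comparison the 6 genes that passed the filter in both cell types stayed higher in the macrophages under all 17 alternatives. The sign of 4 log2 differences changed, none with a call. With a single library left out, Btk in the macrophages ran from -0.044 (without positive replicate 3) to 0.069, and it was -0.019 with upper-quartile factors. In the carcinoma cells Fcer1g ran from -0.85 (without positive replicate 2; -0.27 and -0.21 without negative replicate 1 and 3) to 1.12, Lyn from -0.0038 (without negative replicate 2) to 0.18, and Lat2 from -0.075 (without positive replicate 2) to 0.48. The cause was not tested. Depth limits Fcer1a and Fcer2a in all libraries, and Ms4a2 and Btk in the carcinoma cells.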
